A study of Homo sapiens with 2 samples.

Results

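The genes named after the proteasome, PSMA1 to PSMG4, were examined in messenger RNA of HEK293T, an established cell line from human embryonic kidney that carries the SV40 large T antigen. Members were all protein-coding genes whose symbol begins with PSM, a letter from A to G and a digit, and 49 of the 57820 gene IDs in the files met that rule. One library came from cells given a control siRNA and 1 from cells given an siRNA against SRα, the product of SRPRA and part of the receptor that brings signal recognition particles to the endoplasmic reticulum. The siRNA sequences, their dose and the time after transfection were not given in the sources used here. With 1 library per condition there was no replicate check and no test. Intervals are 95% exact (Clopper-Pearson) counting intervals, which cover counting error only.

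The proteasome is the large protease that degrades ubiquitin-tagged proteins in the cytosol and nucleus, including proteins withdrawn from the endoplasmic reticulum. Its core is a barrel of alpha rings (PSMA) around beta rings (PSMB), and the cutting sites lie on the beta subunits PSMB5, PSMB6 and PSMB7. A regulatory particle caps the barrel. Its base holds a ring of ATPases (PSMC) that unfold substrates and the large scaffolds PSMD1 and PSMD2, and its lid of further PSMD subunits holds PSMD14, which removes ubiquitin. Other caps (PSME), the regulator PI31 (PSMF1) and assembly factors (PSMG1 to PSMG4, and also PSMD5, PSMD9 and PSMD10) complete the family. When proteasomes are inhibited, the transcription factor NFE2L1, which is made in the endoplasmic reticulum, is known to raise many of these genes together through antioxidant response elements. Interferon is known to induce the immune subunits PSMB8, PSMB9 and PSMB10 and the cap subunits PSME1 and PSME2.

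Because shared elements of this kind are the textbook basis for treating the family as a unit, stretches of RefSeq promoters (GRCh38.p14) that hold them are shown first. Only genes with 1 window in the RefSeq table are shown, so that each stretch lies before the listed start site. Each line runs 5′ to 3′ on the gene's strand. Capitals mark the match. The antioxidant response element was searched on both strands as TGAC and GCA with any 3 bases between them, so it also appears as TGC and GTCA with 3 bases between.
PSMD12, lid, chr17:67366713-67366762, minus strand: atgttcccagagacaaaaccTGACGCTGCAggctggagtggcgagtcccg
PSMD9, assembly factor, chr12:121888620-121888669, plus strand: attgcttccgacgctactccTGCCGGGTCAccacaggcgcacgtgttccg
PSME4, cap, chr2:53970999-53971048, minus strand: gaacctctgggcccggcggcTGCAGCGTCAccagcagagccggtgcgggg

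The interferon-stimulated response element was searched on both strands as GAAA and GAAA with any 2 bases between them. It is shown for an immune core subunit, an interferon-inducible cap subunit and, for comparison, a subunit of the standard core.
PSMB10, immune core, chr16:67936851-67936891, minus strand: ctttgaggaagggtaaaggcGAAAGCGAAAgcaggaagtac
PSME2, cap, chr14:24146611-24146658, minus strand: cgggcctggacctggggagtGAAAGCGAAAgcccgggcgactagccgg
PSMB4, standard core, chr1:151399485-151399534, plus strand: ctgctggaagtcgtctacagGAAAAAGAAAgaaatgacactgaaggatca

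Promoter windows of 300 bases, from 250 before to 50 after a start, were found by symbol for 43 of the 49 members, in 54 windows. The antioxidant response element lay in 8 of these windows (14.8%), against 3.19% of all 34943 promoter windows and 2.76% of those of measured protein-coding genes. The 8 genes were PSMA4, PSMB9, PSMC5, PSMD1, PSMD3, PSMD9, PSMD12 and PSME4. The interferon element lay in 7 windows (13%), against 3.57% of all windows, and the genes were PSMA4, PSMB4, PSMB8, PSMB10, PSME1, PSME2 and PSMG4. The ETS core CCGGAA lay in 25 windows (46.3%), against 17.2% of all windows and 26.9% of those of measured protein-coding genes. CCAAT lay in 23 windows (42.6%), against 34.6% of all. Each motif was read on both strands, windows of a gene with several starts can overlap, and a match describes letters only.

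Gene reads numbered 2445200 after control siRNA and 3896721 after SRα siRNA. SRPRA, the depleted gene, had 507 and 449 reads, or 205 and 117 CPM (counts scaled to a common library size), a ratio of 0.570 and a log2 ratio of -0.81 (-0.998 to -0.63). Of markers that a HEK293T culture should hold, NEFM, a neurofilament chain that this line is known to make, had 273 and 528 reads, and PAX2, a kidney transcription factor, had 1 and 7. Of markers of other cells, PTPRC, CD3E, CDH5 and HBB had 0 reads in both libraries, ALB had 0 and 1, and the collagen gene COL1A1 had 31 and 44. NEFL, LHX1 and PECAM1, also on these lists, were matched to no gene ID.

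Proteasome messages stood at nearly the same level in both libraries. The 47 members that encode subunits, caps, PI31 or assembly factors summed to 25660 reads after control siRNA and 40288 after SRα siRNA, which is 1.05% and 1.03% of gene reads. The ratio of these sums was 1.01 (0.995 to 1.03), and with library totals only it was 0.985 (0.970 to 1.001). Of 49 members 43 passed a filter of a mean of 1 CPM. Among these 43, a total of 21 were higher and 22 lower in the SRα siRNA library. Over all measured genes 51.4% were higher, and over protein-coding genes of at least 50 CPM 60.1% were. Their median log2 ratio was -0.01, against 0.01 over 12747 measured genes and 0.04 over 3890 protein-coding genes of at least 50 CPM.

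**Figure D1:**
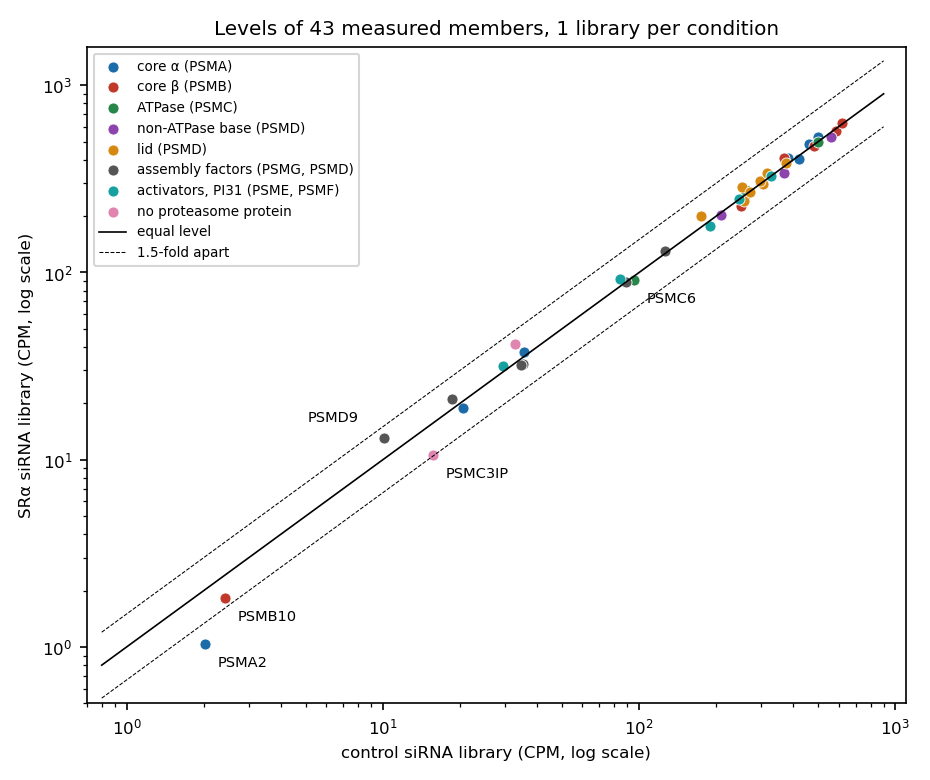
Level of each of the 43 measured members in the control siRNA library (x axis, CPM, log scale) and the SRα siRNA library (y axis, CPM, log scale), 1 point per gene, coloured by class; the solid line marks equal levels and the dashed lines a 1.5-fold difference. Points lie along the line of equal levels, and PSMA2, with 2.02 and 1.04 CPM, lies outside the dashed lines.

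No member was at least 1.5-fold higher, and 1 was at least 1.5-fold lower. The shares over all measured genes were 6.55% higher and 6.97% lower, and among protein-coding genes of at least 50 CPM they were 0.0771% and 0.0514%. None was 2-fold apart, against 2.15% of measured genes higher and 2.57% lower by that size, and 0% either way among the protein-coding genes of at least 50 CPM. The lower member was PSMA2, from 5 and 4 reads, so its difference was not detectable at this depth (log2 ratio -0.86, -3.29 to 1.26). A counting interval above a ratio of 1 was found for 3 members, PSMB7, PSMD7 and PSMD12, against 5.46% of all measured genes and 11.4% of protein-coding genes of at least 50 CPM. None lay below, against 3.39% and 4.76%. These calls depend on the scaling. With library totals in place of TMM factors, which align the bulk of genes between libraries, the interval of PSMD12 alone lay above (log2 ratio 0.15, 0.0030 to 0.29), PSMB7 had 0.11 (-0.01 to 0.23) and PSMD7 had 0.17 (-0.0058 to 0.34), and 3 intervals lay below, those of PSMB6, PSMD1 and PSMD2. Under 3 other scalings the same 3 members lay above and 0 below. The 3 of 43 are a share near or under these backgrounds. Among the 32 members of at least 50 CPM log2 ratios had a standard deviation of 0.085 and the median counting error of a ratio was 0.068. Over the 3890 protein-coding genes of at least 50 CPM these were 0.147 and 0.112. The members are also the more deeply read, with a median of 301 CPM against 110, so the narrower spread goes with a smaller counting error.

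**Figure D2:**
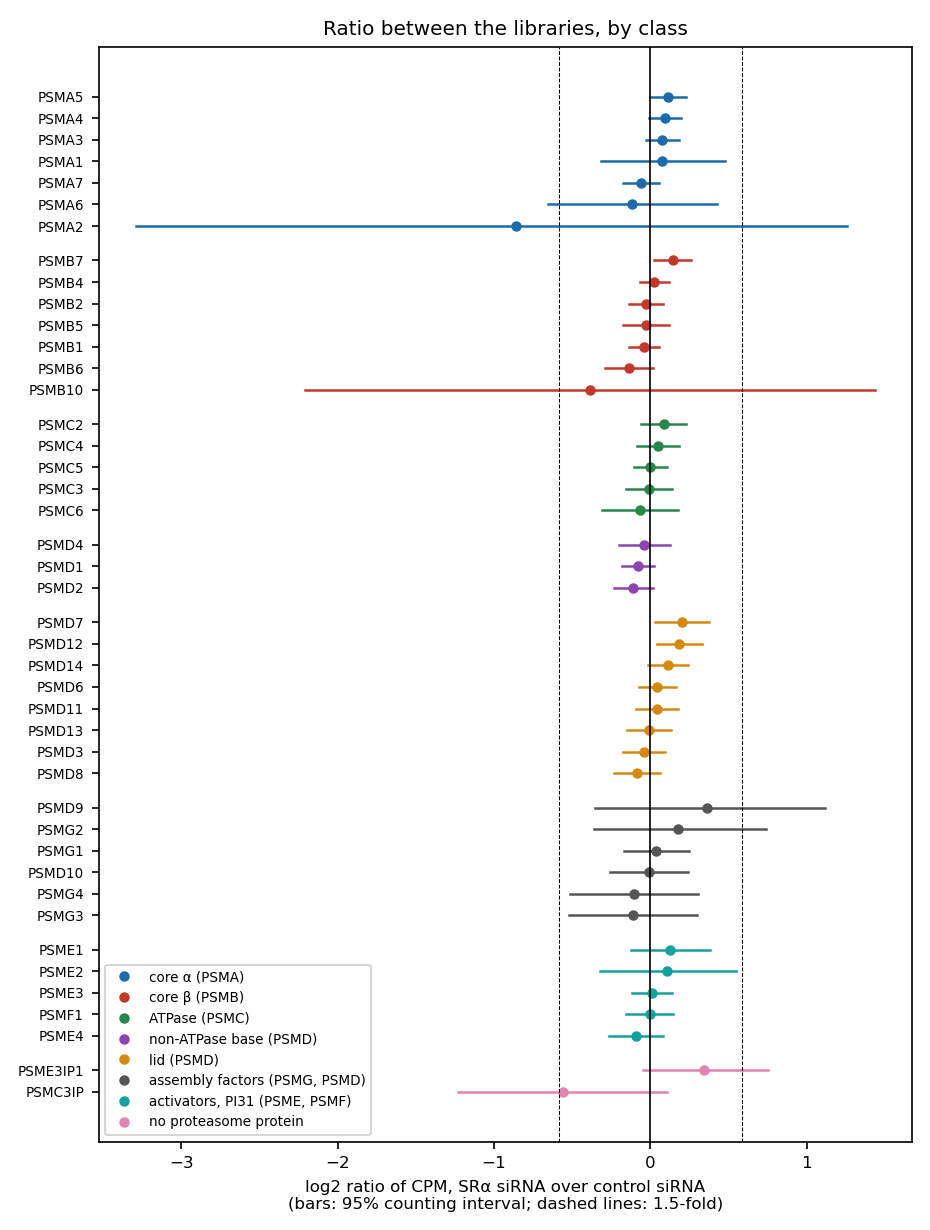
Log2 ratio of CPM, SRα siRNA over control siRNA, for each measured member (points) with its 95% counting interval (bars), sorted within class; dashed lines mark 1.5-fold. Intervals of PSMB7, PSMD7 and PSMD12 lie above 0, and the wide intervals belong to members with few reads, such as PSMA2 and PSMB10.

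The alpha ring, which gates entry to the core, was read mainly from 4 subunits. PSMA4 had 1235 and 2048 reads, or 499 and 532 CPM, in the control and SRα siRNA libraries (log2 ratio 0.09, -0.01 to 0.20). PSMA5 had 942 and 1581 reads, or 380 and 411 CPM, and the highest ratio of the ring (0.11, -0.01 to 0.23). PSMA3 had 462 and 487 CPM and PSMA7 422 and 405 CPM. PSMA3, PSMA4 and PSMA5 were thus slightly higher in the SRα siRNA library and PSMA7 slightly lower, and each counting interval held a ratio of 1. The other 3 ring subunits had far fewer reads. PSMA1 had 88 and 144, PSMA6 had 51 and 73 and PSMA2 had 5 and 4, although each occupies 1 place in the same ring. PSMA8, the testis form, had 0 reads in both. Over the 7 measured members the median log2 ratio was 0.07, and the summed reads had a ratio of 1.04 (1.001 to 1.08), or 1.01 (0.976 to 1.05) with library totals only. This class had a median GC content of 41.7%, and ratios in this pair of libraries ran higher at low GC. With protein-coding genes of at least 50 CPM ordered by GC content in 10 equal groups, the median log2 ratio was 0.08 in the group of lowest GC and -0.06 in that of highest GC. After removal of the GC trend, taken for this over protein-coding genes of at least 1 CPM, the class median was 0.00. The part of GC content in these ratios was not tested.

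The beta ring carries the cutting sites, and its 3 standard catalytic subunits had ratios on both sides of equality. PSMB5, with chymotrypsin-like activity and the main target of clinical proteasome inhibitors, had 633 and 964 reads, or 256 and 251 CPM (log2 ratio -0.03, -0.18 to 0.12). PSMB6, with caspase-like activity, had 616 and 870 reads, or 249 and 226 CPM, and a log2 ratio of -0.14 (-0.29 to 0.01). PSMB7, with trypsin-like activity, had 914 and 1568 reads, or 369 and 408 CPM, and a log2 ratio of 0.14 (0.02 to 0.26). PSMB6 was the lower and PSMB7 the higher in the SRα siRNA library, and neither difference has a replicate check. PSMB4, the most-read member of all, had 1533 and 2423 reads, or 619 and 630 CPM (0.02, -0.07 to 0.12). PSMB1 and PSMB2, at -0.04 and -0.03, complete the standard subunits with a value. PSMB3 was matched to no gene ID and is not analysed here. Over the 7 measured members, PSMB10 among them, the median was -0.03 and summed reads had a ratio of 0.998 (0.967 to 1.03). With the GC trend removed the class median was -0.08.

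The immune counterparts of the catalytic subunits gave almost no reads. PSMB10, which replaces PSMB7 in immunoproteasomes, had 6 and 7 reads. PSMB8 and PSMB9, which replace PSMB5 and PSMB6, were listed at 0 in both libraries, as was PSMB11, the thymus form of PSMB5. A count of 0 allows up to 3 reads, or 1.21 CPM after control siRNA and 0.780 after SRα siRNA. For PSMB8 and PSMB9 this limit does not describe expression, because their neighbourhood on chromosome 6, the major histocompatibility complex, was listed at 0 almost throughout. Of 76 protein-coding genes from 50 before to 25 after PSMB8, a range chosen after the counts were seen, 72 had 0 reads in both libraries. On the rest of chromosome 6, beyond 50 genes on either side of PSMB8, 288 of 893 (32.3%) did, and on other chromosomes 29.5%. Genes at 0 included RPS18, a ribosomal protein, and BRD2, a chromatin reader, which every dividing cell uses. They also included HSPA1A, HSPA1B, TAP1, TAP2 and TAPBP. The 4 genes with reads were HLA-DRA (1 and 1), HLA-DRB5 (2 and 3), HLA-DRB1 (8 and 8) and HLA-DQB1 (36 and 39). The cause of the empty stretch was not tested. PSMB10 and PSMB11 lie on chromosomes 16 and 14.

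**Figure D3:**
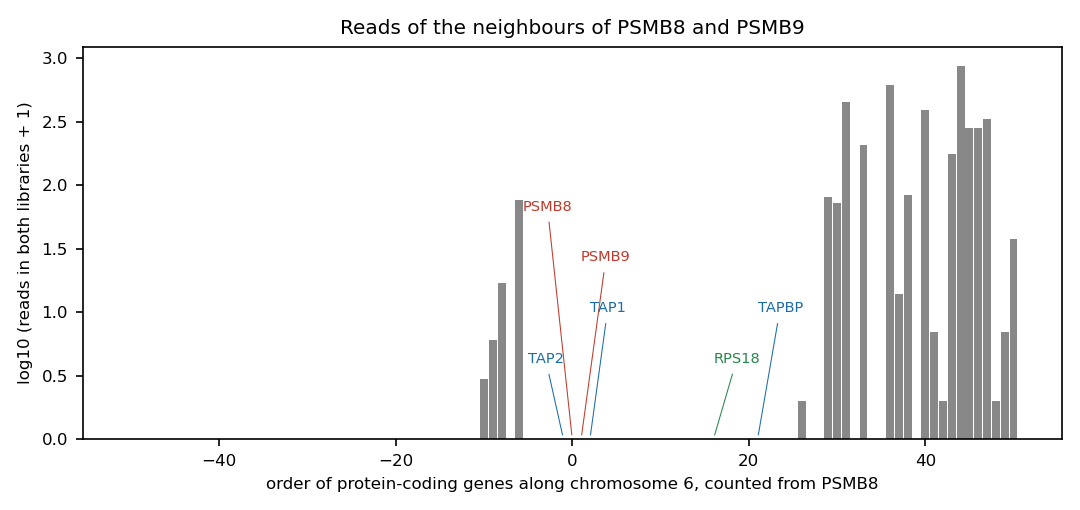
Reads of protein-coding genes around PSMB8, as log10 of the sum of both libraries plus 1 (y axis), in their order along chromosome 6 (x axis, number of genes from PSMB8, 50 to each side). From 50 genes before to 25 after PSMB8, 72 of 76 genes have no bar, PSMB8, PSMB9 and RPS18 among them.

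The ATPases of the base, which pull substrates into the core, had ratios near equality. PSMC5 had 1233 and 1916 reads, and 498 CPM in both libraries (log2 ratio 0.00, -0.10 to 0.10). PSMC2 had 647 and 1066 reads, or 261 and 277 CPM, and the highest ratio (0.08, -0.06 to 0.23). PSMC6 had 237 and 352 reads, or 95.7 and 91.5 CPM, and the lowest (-0.07, -0.31 to 0.18). PSMC3 at -0.01 and PSMC4 at 0.05 lay between them. PSMC1, a ring subunit like the others, had 0 and 4 reads and stayed under the filter, so it has no ratio. The median of the 5 measured ATPases was 0.00, and the summed reads of all 6 had a ratio of 1.01 (0.972 to 1.06).

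The 11 PSMD subunits of base and lid, with 5 higher and 6 lower, had a median of -0.01. Their summed reads had a ratio of 1.01 (0.978 to 1.03). Taken apart, the base's other subunits and the lid had medians of -0.08 and 0.04. PSMD1, the scaffold that holds the ubiquitin receptor ADRM1, had 1387 and 2039 reads, or 560 and 530 CPM (log2 ratio -0.08, -0.18 to 0.02). PSMD2, the scaffold that binds shuttle proteins, had 907 and 1306 reads, or 366 and 339 CPM (-0.11, -0.23 to 0.01). PSMD4, a ubiquitin receptor, had 516 and 779 reads, or 208 and 202 CPM (-0.04, -0.20 to 0.12). All 3 were lower in the SRα siRNA library, as were 48.6% of measured genes and 39.9% of protein-coding genes of at least 50 CPM. Their summed reads had a ratio of 0.944 (0.900 to 0.991), and their median GC content was 52.2%. In the lid 5 of 8 subunits were higher and 3 lower. PSMD7, the inactive partner of PSMD14, had 430 and 769 reads, or 174 and 200 CPM (0.20, 0.03 to 0.38). PSMD12, a scaffold of the lid, had 622 and 1097 reads, or 251 and 285 CPM (0.18, 0.04 to 0.33). PSMD14, the deubiquitinase, had 316 and 341 CPM (0.11, -0.02 to 0.24). PSMD6, the most-read lid subunit, had 924 and 1481 reads, or 373 and 385 CPM (0.04, -0.07 to 0.16), and PSMD8 had the lowest ratio (-0.08, -0.23 to 0.06). PSMD3, PSMD11 and PSMD13 lay between -0.04 and 0.04. Summed lid reads had a ratio of 1.04 (1.003 to 1.07), or 1.01 (0.978 to 1.05) with library totals only, and the median GC content was 47.4%. The summed ratio of the 3 base subunits was 0.921 (0.878 to 0.967) with library totals only. The difference between base and lid was not tested.

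Caps and PI31 showed no difference that the depth could resolve. PSME1 and PSME2, which form the interferon-inducible cap, had few reads. PSME1 had 208 and 353 (log2 ratio 0.13, -0.12 to 0.38) and PSME2 had 73 and 122, or 29.5 and 31.7 CPM (0.10, -0.33 to 0.54). PSME3, the nuclear cap, had 808 and 1264 reads, or 326 and 328 CPM (0.01, -0.12 to 0.14). PSME4, the large cap PA200, had 470 and 685 reads, or 190 and 178 CPM (-0.09, -0.26 to 0.08), and PSMF1 had 610 and 944 reads (-0.01, -0.15 to 0.14). Over these 5, with 3 higher and 2 lower, the median was 0.01 and the summed reads had a ratio of 0.999 (0.947 to 1.06).

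Assembly factors summed to 778 and 1221 reads. PSMG1 and PSMG2 pair to start the alpha ring. PSMG1 had 313 and 499 reads, or 126 and 130 CPM (log2 ratio 0.04, -0.17 to 0.25), and PSMG2 had 46 and 81 reads (0.18, -0.36 to 0.74). PSMG3 had 87 and 125 reads, with the lowest ratio of the class (-0.11, -0.52 to 0.30), and PSMG4 had 86 and 124. Among chaperones of the base, PSMD10 (gankyrin) had 221 and 341 reads (-0.01, -0.26 to 0.24), PSMD9 had 25 and 50 (0.36, -0.36 to 1.12) and PSMD5 had 0 and 1, which leaves it under the filter. Over the 6 measured factors the median was 0.01, and the summed reads of all 7 had a ratio of 1.01 (0.922 to 1.11). At the filter's limit, PSMA2 and PSMB10 lay just inside with means of 1.53 and 2.12 CPM, and PSMC1 and PSMD5 just outside with 0.520 and 0.130.

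A pair of genes that the rule takes by name encode no proteasome protein. PSMC3IP, a cofactor of meiotic recombination, had 39 and 41 reads (log2 ratio -0.56, -1.23 to 0.11). PSME3IP1, a protein that binds PSME3, had 81 and 160 reads (0.34, -0.05 to 0.75). The median without them was -0.01, as with them.

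Subunits of a single complex differed widely in level per length. Levels were set as RPKM, the CPM divided by the length in kilobases of the union of the gene's exons in GENCODE 29. In the control siRNA library the 30 standard subunits of the core, base and lid had a median of 70.1 RPKM, from PSMC1 at 0 to PSMB4 at 287. The SRα siRNA library gave a median of 74.5, again from PSMC1 (0.169) to PSMB4 (292). Class medians in the control siRNA library were 189 for the beta ring, 92.3 for the ATPases, 68.8 for the other base subunits, 66.5 for the alpha ring and 51.8 for the lid. The lid ran from 40.9 (PSMD6) to 82.5 (PSMD8), the beta ring from 99.7 (PSMB2) to 287 (PSMB4), and the alpha ring from 0.378 (PSMA2) to 241 (PSMA7). These levels depend on the length used. With the longest protein-coding transcript the lid had a median of 139 and the alpha ring one of 102.

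**Figure D4:**
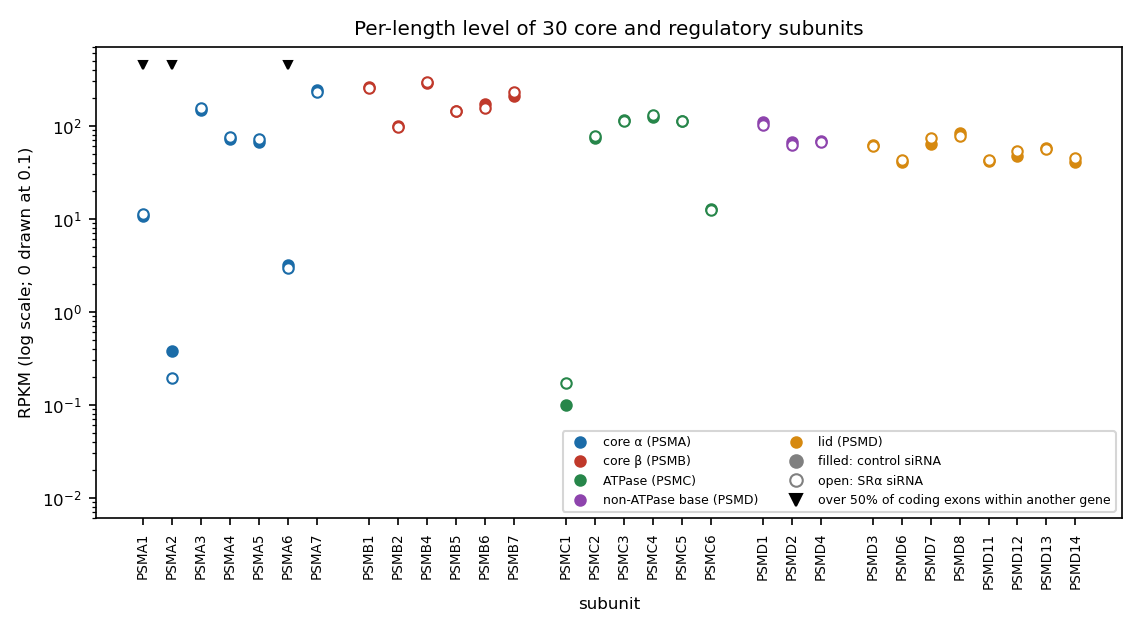
Level per length (y axis, RPKM on a log scale, union of exons, a value of 0 drawn at 0.1) of 30 standard subunits (x axis), with filled points for the control siRNA library and open points for the SRα siRNA library. Triangles mark PSMA1, PSMA2 and PSMA6, whose coding exons lie by more than 50% within another gene on the same strand and whose levels lie well below the other alpha subunits in both libraries.

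The low values of several subunits went with features of their genes. In GENCODE 29, restricted to gene IDs that the files list, 5 members had more than 50% of their coding bases inside exons of another gene on the same strand. These were PSMA2 (97.1%), PSMA1 (88.6%), PSMA6 (70.4%), PSMD9 (58.7%) and PSMB10 (58.3%). All 5 were among the 17 members under 50 CPM, with means of 1.53 to 36.5 CPM, and the 32 members of at least 50 CPM had no such overlap (0%). Of the overlapping genes, all protein-coding by that annotation, the one at PSMB10 had 1 and 2 reads and the other 4 had 0 in both libraries. The files set apart 129676 and 203076 reads that matched more than 1 gene. PSMC1 lies by 47.7% of its coding bases within exons of NRDE2 on the other strand, and 29.4% of the 50-base words of its longest coding transcript also occur in other genes, led by its pseudogenes. For PSMA6 that share was 24.6%, and the pseudogene PSMA6P1 had 22 and 40 reads against 51 and 73 for PSMA6. Shared words and overlap on the other strand also occurred in well-read members. The share of words was 24.7% for PSMC6 (mean 93.6 CPM) and 22.8% for PSMD4 (205 CPM). PSMD7, with a mean of 187 CPM, had 28.4% of its coding bases within exons on the other strand. PSMD5, at 0 and 1 reads, showed no overlap and no shared words (0% and 0%). The part of these features in the counts was not tested. The levels of the members with low values are therefore uncertain, and a ratio between libraries rests on the few reads left.

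Other genes of the pathway, from 8 lists of 58 genes, were also near equality, with 50 genes measured, 30 higher and 20 lower, and a median log2 ratio of 0.04. By the size of 1.5-fold, 2 of the 50, ZFAND2B and IRF1, were higher and 1, MAFK, was lower. The shares were 6.55% and 6.97% over all measured genes, and 0.0771% and 0.0514% among protein-coding genes of at least 50 CPM. The list genes had a median of 102 CPM, against 23.2 over all measured genes. Reads were few for ZFAND2B (13 and 40), IRF1 (12 and 33) and MAFK (24 and 20). Counting intervals lay above a ratio of 1 for 7 of the 50 and below it for 4. Over all measured genes 5.46% lay above and 3.39% below. Among protein-coding genes of at least 50 CPM the shares were 11.4% and 4.76%. Intervals of list genes were computed with TMM factors only, and those close to a ratio of 1 can depend on the scaling, as for the members.

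Proteins bound to the proteasome but not named PSM had a median of 0.06, with 6 of 8 higher, where 51.4% of all measured genes and 60.1% of protein-coding genes of at least 50 CPM were higher. Their median GC content was 43.1%, and with the GC trend removed the list median was 0.01. SEM1, a small lid subunit, had 335 and 618 reads (0.25, 0.05 to 0.44), and UCHL5, a deubiquitinase, had 495 and 871 (0.18, 0.02 to 0.34). ADRM1, the ubiquitin receptor that recruits UCHL5, had 486 and 696 reads and lay on the other side of equality (-0.12, -0.29 to 0.05). ECPAS, the most-read gene of this list, had 0.05 (-0.09 to 0.18). POMP, which matures the core, had 853 and 1271 reads (-0.06, -0.19 to 0.07), the lowest and the most-read of 4 assembly and import factors, and AKIRIN2, which guides proteasomes into the nucleus, was the highest at 0.02.

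The list around NFE2L1 had the highest median of the 8, 0.16, with 6 of 7 measured genes higher in the SRα siRNA library. The shares higher were 51.4% over all measured genes and 60.1% over protein-coding genes of at least 50 CPM. Only 1 of the 7 counting intervals, that of NFE2L2, left out a ratio of 1. NFE2L1 itself had 236 and 419 reads, or 95.3 and 109 CPM (0.19, -0.04 to 0.43). NFE2L2, its relative in the oxidative stress response, had 115 and 242 reads, or 46.4 and 62.9 CPM (0.44, 0.11 to 0.77). DDI2, the protease that cuts NFE2L1 free, had 260 and 452 reads (0.16, -0.06 to 0.39), and NGLY1, the enzyme that removes its glycans, had 97 and 181 (0.26, -0.10 to 0.64). The binding partner MAFK lay the other way, with 24 and 20 reads (-0.88, -1.83 to 0.02). MAFG had 3 and 5 reads (0.09, -2.26 to 2.79) and MAFF 0 in both. KEAP1, also on this list, had 99 and 165 reads (0.10, -0.27 to 0.48). Members with the antioxidant response element in a promoter window lay on both sides of equality, from -0.09 (PSME4) and -0.08 (PSMD1) through -0.04 (PSMD3), 0.00 (PSMC5) and 0.09 (PSMA4) to 0.18 (PSMD12) and 0.36 (PSMD9, from 25 and 50 reads). PSMB9 has no ratio.

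Ubiquitin genes and the enzymes that activate ubiquitin had a median of -0.03. UBA1, the main activating enzyme and the most-read gene here, had 3859 and 5606 reads (-0.10, -0.16 to -0.04). RPS27A, which encodes ubiquitin fused to a ribosomal protein, had 66 and 72 reads (-0.51, -1.01 to -0.01). UBB, a ubiquitin gene, had 0.11 (0.0037 to 0.22), and UBA6, the other activating enzyme, had the highest ratio at 0.12 (-0.09 to 0.34). Ubiquitin shuttles had a median of -0.01, from ZFAND2A with 11 and 12 reads (-0.49, -1.82 to 0.81) to ZFAND2B with 13 and 40 (0.96, 0.05 to 2.01), and RAD23B, the most-read, had 0.15 (0.02 to 0.27). The VCP segregase, which extracts ubiquitin-tagged proteins from membranes and complexes, had a list median of 0.06. VCP had 2050 and 3166 reads (-0.01, -0.09 to 0.07), FAF2 was the lowest at -0.06 (-0.26 to 0.14) and UBXN7 the highest at 0.34 (0.03 to 0.65).

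Genes of proteotoxic stress had a median of -0.05 over 4 measured genes. HMOX1 had 113 and 159 reads (-0.14, -0.50 to 0.22), BAG3 105 and 186 (0.19, -0.16 to 0.55), and SQSTM1, the most-read, had a log2 ratio of 0.01 (-0.22 to 0.24). HSPA1A and HSPA1B lie in the empty stretch of chromosome 6 and have no value. Of 9 genes of antigen processing and interferon control only 4 were measured, with a median of 0.08. B2M had 745 and 1051 reads (-0.14, -0.28 to -0.0021), and IRF1, an interferon-response factor that acts on immune proteasome genes, had 12 and 33 (0.80, -0.17 to 1.91).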

How the data were processed

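The authors deposited raw counts of reads for each Ensembl gene ID in 2 libraries. TRIzol extraction and a stranded mRNA library kit were used, per the labels' protocols. The submitters' processing notes name cutadapt, STAR 2.5.2b and genome build hg19. The counting program, its strand setting and the annotation were not given in the sources used here, so overlapping, antisense and near-identical genes may share or lose reads. The 5 summary lines of each file were kept out of library sizes. Their reads came to 200627 and 331803 in no gene and 129676 and 203076 in several genes, and 10840225 and 14433595 alignments were not unique.

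A gene name table gave symbols for 51996 of 57820 IDs. Gene type, length and GC content came from GENCODE 29 by gene ID, with GC content taken over each gene's transcripts. Promoters came from RefSeq (GRCh38.p14) by symbol. Gene order on chromosome 6 and overlaps between genes came from GENCODE 29 positions and were joined to the hg19 counts by gene ID. No read position was compared with these coordinates. Counts were scaled with edgeR 4.0.16 TMM factors (R 4.3.3; effective sizes 2476276 and 3847820). Log2 ratios of CPM used a prior count of 0.5 scaled to depth. Fold ratios of sums used no prior. With 1 library per condition no model of the spread between cultures could be fitted, so no p-value is given. Genes of a mean of at least 1 CPM were called measured, and a fold of 1.5 was the size counted. The interval was run on simulated counts with counting error only, which is the error it assumes. That run could not check for spread between cultures. Named members were the highest, lowest and most-read of each class, catalytic and immune subunits, PSME1 to PSME3, members under 1 CPM and members at least 1.5-fold apart, and others were named to complete a class. From each list the highest, lowest and most-read gene was named, with further genes chosen after their values were seen. Some list genes are not reported here by name. The members and lists were chosen with earlier results of these data known. Alternatives were DESeq2 1.42.0 size factors and the other choices given in the closing section. Python 3.11.15, numpy 2.4.6, pandas 2.3.3, scipy 1.17.1 and matplotlib 3.10.9 were used.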

Additional observations from a re-analysis of the deposited data

How the results depend on the processing

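No paired analysis was possible because each condition has 1 library, and no library could be left out. Over 13 alternatives the median log2 ratio of the members ran from -0.0423 (library totals only) to 0.01504. Those for the non-ATPase base subunits stayed below 0 (-0.1164 to -0.07509) and those for the lid above 0 (0.007885 to 0.05684) in all 12 settings run. The alpha ring had 0.003374 with the GC trend removed and -0.09797 as a mean in place of a median, which PSMA2 decides, and the beta ring had -0.08328 with the GC trend removed. Members at least 1.5-fold lower numbered 2 with library totals only (PSMA2 and PSMC3IP) and 0 with at least 5 CPM required, after thinning to equal totals, or with members of at least 50 CPM only, a choice made after the values were seen. With no filter 2 were at least 1.5-fold higher, PSMC1 and PSMD5, from 0 reads in the control siRNA library. All genes at least 1.5-fold higher and lower numbered 3594 and 2590 with no filter and 251 and 258 with at least 5 CPM, against 835 and 889. The antigen processing list had 0.4813 with no filter. Median RPKM in the control siRNA library, with the median and the longest protein-coding transcript length, was 145.4 and 102 for the alpha ring, 370.8 and 331.1 for the beta ring, 197.9 and 124.6 for the ATPases, 193.1 and 154.4 for the other base subunits, and 204.7 and 138.6 for the lid. The other 214 recomputed summary values stayed within the limit set for them. For log2 ratios that limit came from the width of the counting interval of summed reads, and for counts it was a factor of 1.5. All settings reused the same 2 libraries, so spread between cultures was not measured. The order of classes by length-scaled level thus depends on the length used. Depth limits the members under 50 CPM most.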
